A study of Mus musculus with 2 samples.

Results

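Cxcl9, Cxcl10 and Cxcl16 are chemokine genes that macrophages use to draw and hold T cells. They were followed across tumor mononuclear phagocytes (TMPs), and their 3 rows were taken by symbol from the 27998 genes of the count tables. The TMPs were MerTk+ CD64+ cells sorted from B16 melanoma tumors, a transplanted mouse melanoma line, in C57Bl/6 mice. Fcmr+/+ mice carried the gene for Fcmr (Toso), an Fc receptor that binds IgM, and Fcmr-/- mice lacked it in the whole body. Tumors of both genotypes were collected within the same range of volume. The age of the mice and the number pooled for each library were not given in the sources used here.

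Each genotype was 1 droplet library, so the spread between mice cannot be estimated and no p-value between genotypes is given. After filtering, 6352 Fcmr+/+ and 7999 Fcmr-/- cells remained, with medians of 17974 and 12911 unique molecular identifiers (UMIs, each counting 1 captured transcript). Intervals are exact, at 95%, and cover counting error alone. Those of levels and differences take UMIs as independent and leave out the spread between cells. Fcmr itself had 7 UMIs in the Fcmr+/+ and 6 UMIs in the Fcmr-/- library, too few to check the labels. Macrophage genes were high in both libraries. Summed over 9 of them, including Mertk, Fcgr1 (CD64) and Lyz2, the level was 18623 and 18470 CPM. CPM are the UMIs of a gene per 1000000 UMIs of the library. Lyz2 alone made up 8942 and 9011 CPM of this sum. The genes of the sort markers differed in opposite directions, with Mertk at 62.8 and 48.7 CPM and Fcgr1 at 250 and 394 CPM. The libraries shared 73 cell barcodes.

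CXCL9 and CXCL10 are ligands of CXCR3, a receptor carried by activated T cells and NK cells. Interferon gamma is the main inducer of Cxcl9, whereas Cxcl10 also answers to type I interferon and NF-kB. CXCL16 binds CXCR6 on effector and resident T cells, and is made as a membrane protein that the protease ADAM10 can release.

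Cxcl9 (ENSMUSG00000029417) lies on chromosome 5, from 92321347 to 92328079 on the minus strand of GRCm38. Cxcl10 (ENSMUSG00000034855) follows at 92346638 to 92348889 on the same strand, 18558 bases away. Cxcl16 (ENSMUSG00000018920) is on chromosome 11, from 70453983 to 70459984, also on the minus strand. All 3 are annotated as protein coding. The third CXCR3 ligand gene, Cxcl11, is annotated in GRCm38 as a polymorphic pseudogene and was not used here. Cxcl10 lies wholly within Art3 on the opposite strand, and Zmynd15 on the opposite strand overlaps the start of Cxcl16 by 552 bases. Whether strand entered the counting was not given in the sources used here. Art3 had 15 and 21 UMIs, far below Cxcl10.

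The 250 bases before the start of transcription are shown for Cxcl9 and Cxcl10, because these neighboring genes had unlike levels across the same cells. They come from RefSeq on GRCm38.p6, at chr5:92328080-92328329 and chr5:92348890-92349139, both read from the minus strand. The table held 2 of the 3 genes. Capitals mark matches, on either strand, to the interferon-stimulated response element (ISRE, searched as GAAA, any 2 bases, GAAA), the gamma-activated site (GAS, TTCNNNGAA) or the NF-kB consensus.
Cxcl9: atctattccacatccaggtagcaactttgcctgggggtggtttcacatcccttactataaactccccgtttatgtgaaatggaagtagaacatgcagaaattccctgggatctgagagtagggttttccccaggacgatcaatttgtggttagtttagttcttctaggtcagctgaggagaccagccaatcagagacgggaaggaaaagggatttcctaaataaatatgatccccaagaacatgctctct
Cxcl10: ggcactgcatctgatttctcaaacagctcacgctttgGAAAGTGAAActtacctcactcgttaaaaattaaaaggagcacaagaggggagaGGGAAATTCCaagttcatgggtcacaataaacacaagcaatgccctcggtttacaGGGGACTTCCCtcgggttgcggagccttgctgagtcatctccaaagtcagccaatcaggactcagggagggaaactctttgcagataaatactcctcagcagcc
The Cxcl10 window held 1 ISRE match, GAAAGTGAAA, and NF-kB matches in 2 places, and the matches in the second place overlap. The Cxcl9 window held none of these letters. Of 32851 RefSeq windows of this length, 2.98% held the ISRE letters, 7.02% the GAS letters and 7.25% the NF-kB consensus. A match is a description of the letters and not evidence of binding. Only these 3 patterns were searched, so the lack of a match is not evidence that Cxcl9 lacks response elements.

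Cxcl9 was far higher in Fcmr-/- TMPs. It had 1859 UMIs in the Fcmr+/+ library, a level of 14.5 CPM (13.8 to 15.2), and 23136 UMIs in the Fcmr-/- library, a level of 186 CPM (183 to 188). The ratio of CPM + 1 was 12.1-fold, or 3.59 (3.53 to 3.66) on the log2(CPM + 1) scale that is used for all differences and folds below. Of the 8701 genes with at least 5 CPM in either library, 0.793% were at least 2-fold higher and 0.287% at least 2-fold lower in Fcmr-/- cells, and Cxcl9 had the second highest ratio. The median over these genes was 0.00. Cxcl9 ranked 6132nd among the genes by level in Fcmr+/+ cells and 776th in Fcmr-/- cells.

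Over all cells, the share of cells with Cxcl9 differed far more than the mean amount in a positive cell. At least 1 UMI was found in 173 Fcmr+/+ cells, or 2.72% (2.34 to 3.15), and in 2027 Fcmr-/- cells, or 25.3% (24.4 to 26.3). Fcmr-/- cells had a lower median number of UMIs. Every cell was therefore also thinned to 6643 UMIs, which left out 151 Fcmr+/+ and 800 Fcmr-/- cells. At that depth the shares were 1.69% (1.39 to 2.05) and 19.9% (19.0 to 20.8), a ratio of 11.7. The mean in a positive thinned cell was 6.04 UMIs in Fcmr+/+ and 5.54 UMIs in Fcmr-/- TMPs, a ratio of 0.918. Before thinning, the amount per positive cell was 5.75 and 15.7 UMIs in the dividing cluster described below. There 3.31% of 724 Fcmr+/+ cells were positive and 5 had 10 or more UMIs. In a cluster led by Hbb-bs and Adm the amount was 12.45 and 2.84 UMIs. Of its 921 Fcmr+/+ cells, 1.19% were positive and 2 had 10 or more UMIs. With so few Fcmr+/+ cells and unequal depth, no direction within clusters is read from these amounts. At 10 or more UMIs, which leaves out cells with a single UMI, the thinned shares were 0.306% and 3.24%.

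Cxcl9 transcripts were concentrated in few cells in both genotypes. Cells with 10 or more UMIs numbered 43 in Fcmr+/+ and 615 in Fcmr-/- TMPs before thinning, and they held 86.2% and 83.9% of all Cxcl9 UMIs. The highest cell had 175 UMIs in the Fcmr+/+ and 226 UMIs in the Fcmr-/- library. The median positive cell had 1 and 3 UMIs. Strongly positive cells were thus present in both genotypes and were more numerous in Fcmr-/- TMPs.

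Cxcl10 was higher in Fcmr-/- TMPs by less than 2-fold. It had 19482 UMIs or 152 CPM (150 to 154) in Fcmr+/+ cells and 34307 UMIs or 275 CPM (272 to 278) in Fcmr-/- cells. The difference was 0.86 (0.83 to 0.88), or 1.81-fold, and ranked 98th of the 8701 genes. Thinned shares of positive cells were 18.3% (17.4 to 19.3) and 24.98% (24.0 to 26.0), a ratio of 1.36. Positive thinned cells held 6.10 and 7.40 UMIs, a ratio of 1.21, so the share and the amount per cell both differed.

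Cxcl16 was carried by most TMPs. Its level was 210.2 CPM (207.7 to 212.7) in Fcmr+/+ and 258 CPM (255 to 261) in Fcmr-/- cells, a difference of 0.29 (0.27 to 0.32) or 1.23-fold. Before thinning, the share of positive cells was higher in Fcmr+/+ TMPs, 85.5% against 82.6%. At equal depth the order turned, with 65.2% (64.0 to 66.4) in Fcmr+/+ and 69.4% (68.3 to 70.5) in Fcmr-/- TMPs. Positive thinned cells held 2.26 and 2.56 UMIs. Cells with 10 or more UMIs held 34.9% and 34.1% of all Cxcl16 UMIs before thinning, so its transcripts were spread more evenly over cells than those of Cxcl9.

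**Figure D1:**
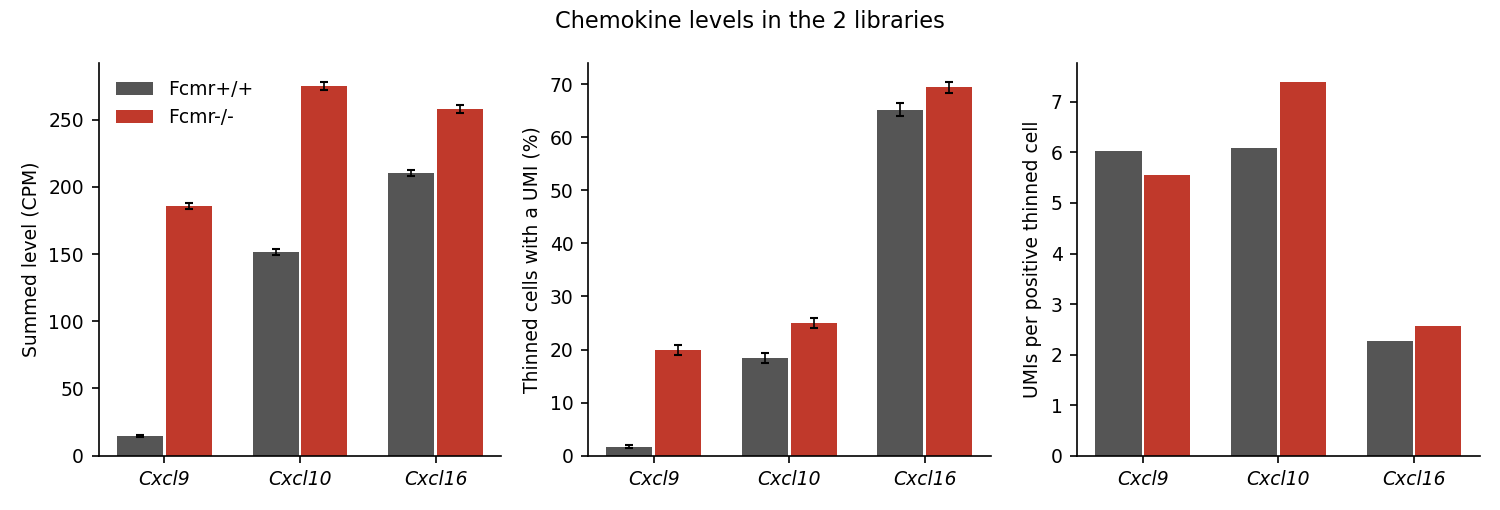
Summed level in CPM (left), percent of cells with at least 1 UMI after thinning (middle) and mean UMIs per positive thinned cell (right) of Cxcl9, Cxcl10 and Cxcl16 in the Fcmr+/+ (gray) and Fcmr-/- (red) library, with exact 95% counting intervals in the left and middle panels. Cxcl9 differs 12.1-fold in CPM + 1 and 11.7-fold in the share of cells, while the amount per positive cell is 6.04 and 5.54 UMIs.

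**Figure D2:**
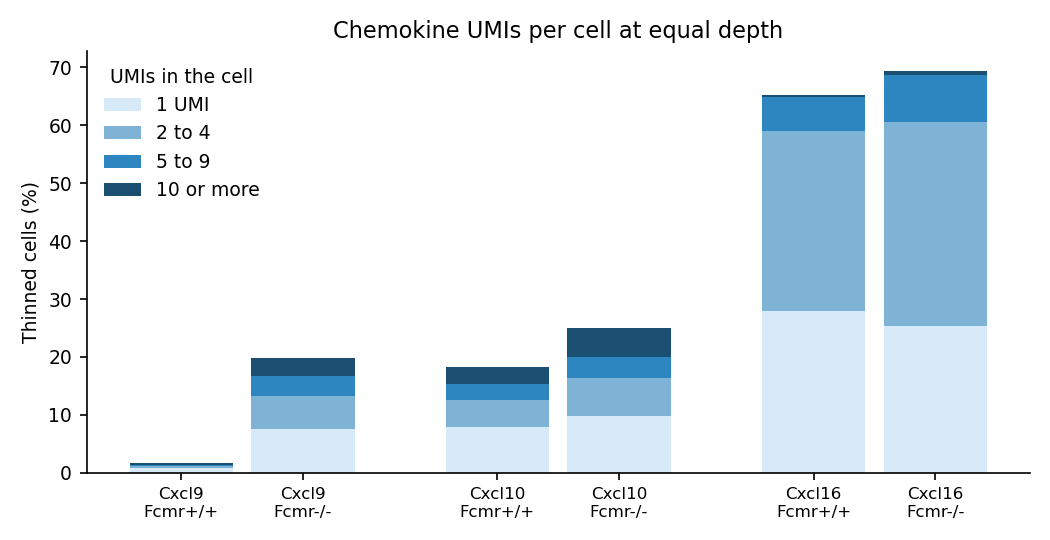
Percent of thinned cells with 1, 2 to 4, 5 to 9 and 10 or more UMIs of each chemokine in each library. Cxcl9 was found with 10 or more UMIs in 0.306% of Fcmr+/+ and 3.24% of Fcmr-/- thinned cells, whereas Cxcl16 was mostly present with 1 to 4 UMIs in both.

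The cells of both libraries were clustered together without the chemokine genes, which gave 9 clusters. Cluster 1 was led by Iigp1, Serpina3g and Gbp4 and was 96.0% Fcmr-/- cells, with 97 Fcmr+/+ cells. Cluster 7 was type I interferon-like, led by Rsad2, Ifit1bl1 and Cmpk2. Cluster 6 was dividing, led by Cenpf, Nusap1 and Prc1. Cluster 4 was inflammatory-like, with Csf3, Cxcl3 and Il1a, and cluster 9 lipid-associated-like, with Mfge8, Spp1 and Gpnmb. The others were left unnamed and are called by leading genes: cluster 2 by Tfrc and Gpr34, cluster 3 by Ccl17 and Cd209a, cluster 5 by Hbb-bs and Adm, and cluster 8 by Amica1, Zmynd15 and Acp5. Interferon-induced genes were among those used for clustering, so high levels of similar genes in clusters 1 and 7 are partly built in.

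Cxcl9 was highest in cluster 1 in both genotypes. The 97 Fcmr+/+ cells there reached 296 CPM (274 to 320) and the 2323 Fcmr-/- cells 363 CPM (357 to 369), a difference of 0.29. Those 97 cells were 1.53% of Fcmr+/+ TMPs and held 34.4% of their Cxcl9 UMIs. In Fcmr-/- TMPs, cluster 1 was 29.0% of cells and held 66.8% of Cxcl9 UMIs. Cells with 5 or more UMIs made up 19.6% of the Fcmr+/+ and 25.7% of the Fcmr-/- cells of cluster 1.

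The genotype difference of Cxcl9 was largest among dividing cells. In cluster 6 its level was 6.34 CPM (5.33 to 7.50) in 724 Fcmr+/+ cells and 259 CPM (251 to 266) in 738 Fcmr-/- cells, a difference of 5.14 (4.93 to 5.36) or 35.3-fold. Cells with 5 or more UMIs numbered 5 and 176. T and NK cell genes, summed over 7 markers, moved with this difference, at 0.184 CPM in Fcmr+/+ and 60.9 CPM in Fcmr-/- cells of the cluster. Without the 4 and 21 cells that had a T or NK cell UMI, the difference in Cxcl9 was again 5.14.

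Cxcl9 was higher in Fcmr-/- cells in 9 of 9 clusters, and the counting interval lay above 0 in each. That interval leaves out the spread between cells, and few Fcmr+/+ cells carried the UMIs. In cluster 8, 1.65% of 667 Fcmr+/+ cells held all 193 UMIs, and 1 cell had 10 or more. Outside clusters 1 and 6 the differences ran from 1.36 in cluster 7, where the levels were 32.1 and 84.0 CPM, to 2.68 in cluster 2, where they were 6.68 and 48.1 CPM. Over the 8701 genes, 8.56% were higher in Fcmr-/- cells in every cluster. In cluster 3 the difference was 2.24, but dendritic cell genes were also higher there, at 35.999 and 90.1 CPM over 7 markers. Without the 73 and 75 cells of cluster 3 that had at least 2 such UMIs, it was 1.65.

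The lowest Cxcl9 levels were those of the inflammatory-like cluster 4 and the lipid-associated-like cluster 9. The 187 Fcmr+/+ cells of cluster 9 had 3 UMIs in all. Its 821 Fcmr-/- cells had 68 UMIs, and there 7.80% of cells were positive with a mean of 1.06 UMIs and 0 cells reached 5. The median depth there was 17961 and 11400 UMIs. No cell type lacking Cxcl9 was captured in number, since 0 Fcmr+/+ and 4 Fcmr-/- cells had under 5 macrophage UMIs, so the part of free RNA in such low shares was not tested. By counts of cells with 5 or more UMIs the genotypes still differed in cluster 2, with 7 of 1426 against 17 of 586 cells, and in cluster 3, with 13 of 1215 against 47 of 790 cells. Numbers were smaller in cluster 5, with 3 of 921 against 10 of 578 cells, and in cluster 8, with 2 of 667 against 9 of 403. In cluster 7 they were 7 of 270 against 38 of 867 cells. Cluster 4 had 0 of 845 against 2 of 893 such cells and cluster 9 had 0 in both genotypes. In clusters 4 and 9 the difference thus rested almost wholly on cells with under 5 UMIs.

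Ordered by level, clusters 9 and 4 were not separated by their counting intervals in either genotype. The spread between cells is not in these intervals, so the order of the other clusters is a description. Among Fcmr+/+ cells clusters 6, 2 and 5 also overlapped with their neighbors, as did clusters 3 and 8. Among Fcmr-/- cells cluster 7 overlapped with cluster 3. The dividing cluster stood above clusters 9 and 4 alone in Fcmr+/+ TMPs, and below cluster 1 alone in Fcmr-/- TMPs.

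Cxcl10 followed a different map. Its highest level was in the type I interferon-like cluster 7, at 1358 CPM (1320 to 1397) in Fcmr+/+ and 997 CPM (977 to 1018) in Fcmr-/- cells, and the lowest was in cluster 9, at 33.9 and 26.7 CPM. Cluster 7 held 24.3% of the Cxcl10 UMIs of Fcmr+/+ TMPs and 27.0% of those of Fcmr-/- TMPs. Cluster 1 held 2.95% and 42.7%, at levels of 266 and 344 CPM.

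Within clusters, Cxcl10 was higher in Fcmr-/- cells in 5 of 9 and lower in 4, but this majority was lost in all 5 alternative clusterings, where Cxcl10 was higher in 33.3% to 46.7% of clusters. It was higher beyond the counting interval in cluster 1 by 0.37, in cluster 3 by 0.59 and in cluster 6 by 0.75. It was lower beyond the interval in clusters 2, 5, 7 and 9, with differences of -0.69, -0.45, -0.45 and -0.33. In cluster 7, 50.8% (44.4 to 57.2) of thinned Fcmr+/+ cells and 40.6% (36.8 to 44.5) of thinned Fcmr-/- cells were positive. No direction thus held across the clusters, although the library as a whole was 1.81-fold higher.

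Cxcl16 varied little between clusters. It was highest in cluster 8, at 379.6 CPM (367.2 to 392.4) in Fcmr+/+ and 417 CPM (398 to 437) in Fcmr-/- cells, and lowest in clusters 4 and 9, between 138 and 166 CPM. In cluster 8, 80.6% and 82.4% of thinned cells were positive. Zmynd15, which overlaps Cxcl16, is a leading gene of that cluster, and the part of shared reads was not tested. It was higher in Fcmr-/- cells in 7 of 9 clusters, by up to 0.55 in cluster 7, where the levels were 239.9 and 351 CPM. The inflammatory-like cluster 4 went the other way, at 166 and 138 CPM, a difference of -0.27 (-0.36 to -0.18). In cluster 9 the interval of the difference included 0.

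**Figure D3:**
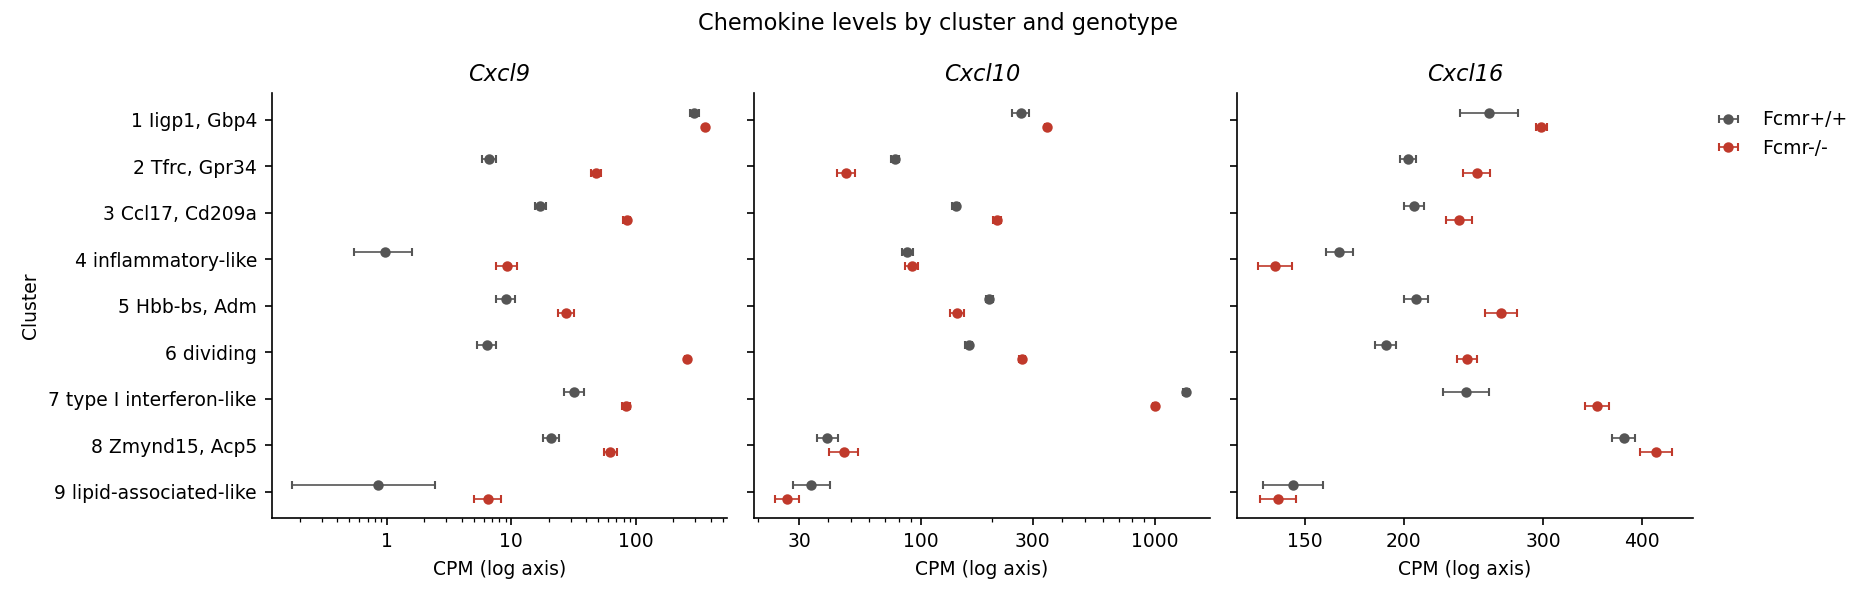
Level of each chemokine in CPM on a log axis, by cluster and genotype, with exact 95% Poisson intervals. Cxcl9 lies to the right in Fcmr-/- cells (red) in every cluster and most of all in dividing cluster 6, at 259 against 6.34 CPM, Cxcl10 peaks in cluster 7, and Cxcl16 spans a narrow range with its highest values in cluster 8.

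To separate levels within clusters from the sizes of clusters, Fcmr-/- cluster levels were weighted by each cluster's share of all UMIs in the Fcmr+/+ library, not by cell numbers. Cxcl9 was then 89.2 CPM against 14.5 CPM, a difference of 2.54 in place of 3.59. Cxcl10 was 161 against 152 CPM, a difference of 0.085 in place of 0.86. That value changed sign with the clustering, to -0.090 at a resolution of 0.4 and to -0.069 when the chemokines stayed among the clustering genes. Cxcl16 was 246 against 210.2 CPM, a difference of 0.22 in place of 0.29. At the cluster composition of the Fcmr+/+ library, the Cxcl10 difference was therefore close to 0, while those of Cxcl9 and Cxcl16 remained. The composition of the Fcmr-/- library was not used, and the size of these values depends on that choice. Cluster 1, where Cxcl9 differed by 0.29, was 1.53% of Fcmr+/+ and 29.0% of Fcmr-/- cells. It thus had little weight in the Cxcl9 value of 2.54.

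**Figure D4:**
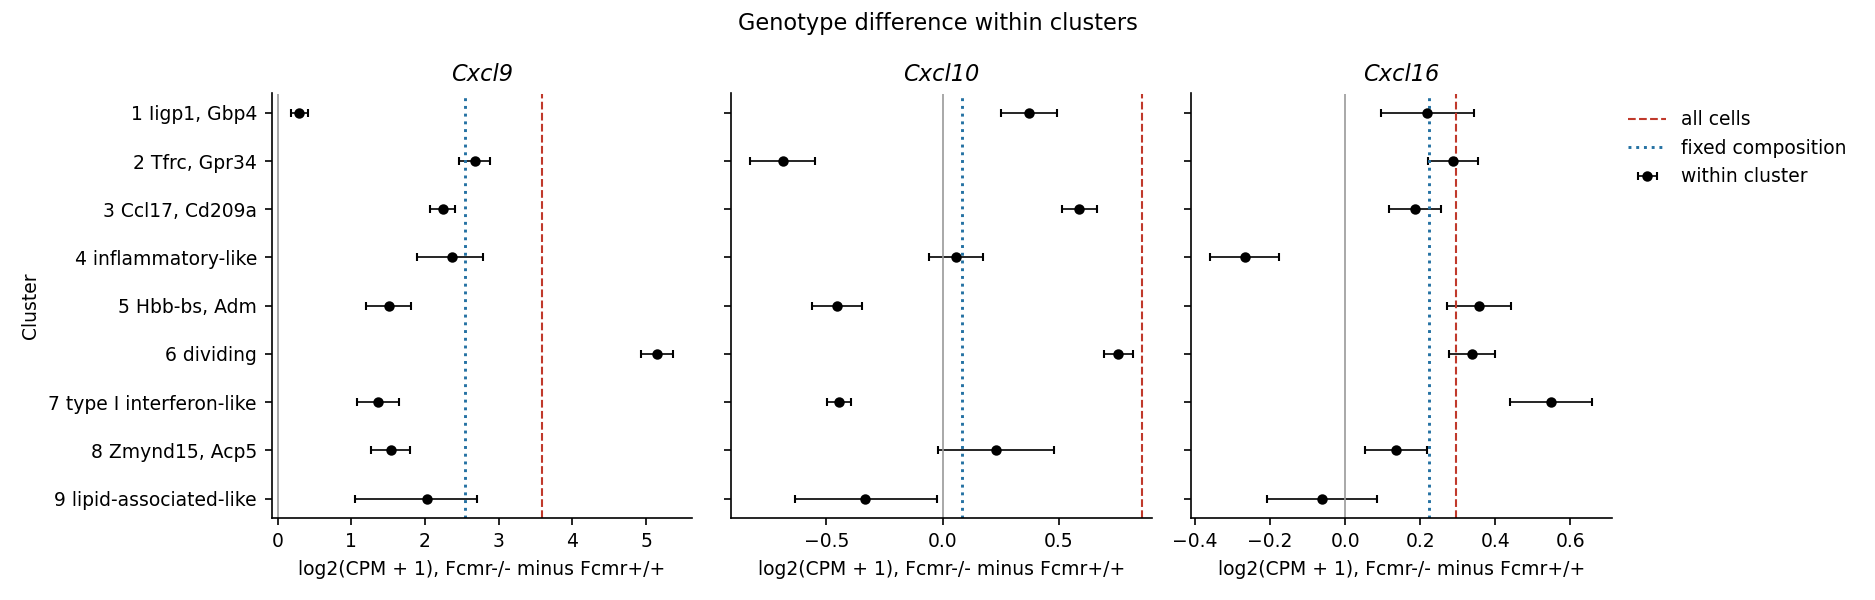
Difference between Fcmr-/- and Fcmr+/+ on the log2(CPM + 1) scale within each cluster (points, with exact 95% conditional intervals), over all cells (red dashes) and at the cluster composition of the Fcmr+/+ library (blue dots). All 9 points of Cxcl9 lie above 0, whereas those of Cxcl10 run from -0.69 to 0.75.

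The balance between the CXCR3 ligands differed between clusters and genotypes. UMIs count transcripts from their 3′ ends and were not scaled to length. Of the Cxcl9 and Cxcl10 UMIs together, Cxcl9 made up 8.71% (8.34 to 9.10) in Fcmr+/+ and 40.3% (39.9 to 40.7) in Fcmr-/- TMPs. In cluster 1 it made up 52.7% and 51.3%, close to equal. In dividing cluster 6 it made up 3.82% and 48.9%, and in cluster 7 it was 2.31% and 7.77%. Cluster 2 held 8.0% in Fcmr+/+ and 50.2% in Fcmr-/- cells, with lower Cxcl10 and higher Cxcl9 in the latter.

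Few Fcmr+/+ cells held all 3 chemokines. In thinned cells this was 31 cells or 0.4999% (0.340 to 0.709) in Fcmr+/+ and 439 cells or 6.10% (5.56 to 6.68) in Fcmr-/- TMPs. None of the 3 was found in 28.8% and 21.2%. The commonest state was Cxcl16 alone, in 51.9% and 41.2%. Cxcl9 with Cxcl16 and without Cxcl10 was found in 0.758% and 9.82%, and Cxcl10 with Cxcl16 and without Cxcl9 in 12.0% and 12.3%, with overlapping intervals.

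Cxcl9 and Cxcl10 occurred together more often than their separate shares give. The observed share of thinned cells with both was 2.13 times the product of the shares in Fcmr+/+ and 1.47 times in Fcmr-/- TMPs. With the product taken within clusters, the values were 1.68, from 41 cells, and 1.21, from 527 cells. Pairs with Cxcl16 gave 1.14 and 1.15 with Cxcl9 and 1.05 and 1.06 with Cxcl10. Cxcl16 was in 65.2% and 69.4% of thinned cells, which caps these values, so they are not ranked against the first pair. The correlation of presence over thinned cells was 0.070 in Fcmr+/+ and 0.136 in Fcmr-/- TMPs for Cxcl9 with Cxcl10. It was 0.025 and 0.115 for Cxcl9 with Cxcl16, and 0.032 and 0.052 for Cxcl10 with Cxcl16. Over clusters, the Cxcl9 and Cxcl10 value exceeded 1 in 6 of 9 in each genotype. In Fcmr+/+ TMPs this count says little, because under 1 cell with both was expected in several clusters. Clusters 4, 8 and 9, with a value of 0, had 0.981, 0.549 and 0.0802 expected cells, and cluster 5, above 1, had 0.975. All these values are descriptions over cells of 1 library each, at equal depth.

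Genes of the interferon gamma response were higher in Fcmr-/- TMPs together with Cxcl9. All 30 listed type II interferon genes were detected, and 30 of them were higher, against 49.3% of all 18041 genes detected. The 30 include genes near the limit, such as Ido1 with 2 and 4 UMIs. The lists were chosen with earlier results of these data known, so counts over them are descriptions. Genes low in Fcmr+/+ cells that pass a minimum in Fcmr-/- cells alone must differ, so the size of the differences is given for genes with at least 5 CPM in Fcmr+/+ cells. Of these, 17 were in the list, 8 were at least 2-fold higher and the median difference was 0.99. Over all 8550 such genes, 0.515% were at least 2-fold higher, 49.6% were higher and the median was 0.00. Gbp2, a guanylate-binding protein of host defense, was 21.4 and 139 CPM. Iigp1, an interferon-induced GTPase, was 3.19 and 72.6 CPM, and Serpina3g, a protease inhibitor, 2.77 and 38.4 CPM. Both lie below the minimum in Fcmr+/+ cells and are not among the 17 genes, so the size of their differences is not read. The proteasome subunit gene Psmb9 was 75.5 and 161 CPM. Of 33 type I interferon list genes with at least 5 CPM in Fcmr+/+ cells, 31 were higher and 3 at least 2-fold higher, with a median of 0.55. Isg15, a ubiquitin-like modifier, was 150 and 275 CPM, whereas Ifit1, an RNA-binding antiviral protein, was 74.8 and 67.4 CPM.

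Genes upstream of these lists differed in both directions. The receptor genes were close to level, with Ifngr1 at 126 and 107 CPM and Ifngr2 at 102 and 105 CPM. Of 8 interferon gamma signaling genes with at least 5 CPM in Fcmr+/+ cells, 7 were higher, against 49.6% of all such genes, with a median of 0.17. Ifng itself, made by T and NK cells, had 1 UMI in 1 Fcmr+/+ cell and 41 UMIs in 9 Fcmr-/- cells, 8 of which also had a T or NK cell UMI. T and NK cell markers had 132 UMIs in 35 cells and 1831 UMIs in 126 cells in all, while the NK receptor gene Ncr1 had 0 and 1 UMIs. The part of these cells in the interferon response of the macrophages was not tested. Without them, the differences of Cxcl9, Cxcl10 and Cxcl16 were 3.58, 0.86 and 0.30.

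Type I interferon and NF-kB genes gave another pattern. Ifnb1, which encodes interferon beta, was lower in Fcmr-/- TMPs, at 10.3 and 3.97 CPM, a difference of -1.18. Irf7, the factor that amplifies type I interferon production, was higher, at 69.7 and 139.5 CPM. All 5 NF-kB genes were lower, against 50.4% of all genes with at least 5 CPM in Fcmr+/+ cells, with a median of -0.34. Tnf, a main inflammatory cytokine, was 259 and 134 CPM, and Nfkbia, the NF-kB inhibitor, was 1658 and 1411 CPM. Ifnb1 was found in 176 Fcmr+/+ and 89 Fcmr-/- cells. Cxcl10 was higher in the library in which Ifnb1 and Tnf were lower, and the part of either gene in the Cxcl10 level was not tested.

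Of 6 listed genes for other products that act on T cells, with at least 5 CPM in Fcmr+/+ cells, 5 were higher in Fcmr-/- TMPs, against 49.6% of all such genes. Nos2, the inducible nitric oxide synthase, was 8.67 and 40.4 CPM, the chemokine gene Ccl5 33.2 and 60.9 CPM, and Cd274, which encodes the checkpoint ligand PD-L1, 63.3 and 109 CPM. Cd40 was 28.5 and 27.7 CPM. Il12b had 29 and 55 UMIs and Ido1 2 and 4. Among 5 other CXC chemokine genes with at least 5 CPM in Fcmr+/+ cells, Cxcl3, a neutrophil attractant, was higher at 110 and 223 CPM. The other 4, Cxcl1, Cxcl2, Pf4 and Ppbp, were lower, against 50.4% of all such genes, with differences from -0.64 to -0.01. Of these, Cxcl1 and Cxcl2 were close to level, at -0.07 and -0.01.

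The genes for processing enzymes were close to level, and those for receptors were rare. Adam10, whose protease releases CXCL16 from the membrane, was 81.0 and 84.5 CPM, and the related Adam17 was 81.2 and 96.0 CPM. Dpp4, a protease that trims CXCR3 ligands, was near the limit with 84 and 117 UMIs. Cxcr3 was found in 126 and 159 cells, of which 3 and 10 also had a T or NK cell UMI. Cxcr6 was found in 9 and 21 cells, with 16 and 95 UMIs or 0.125 and 0.762 CPM, and 4 and 19 of these cells had such a UMI. The scavenging receptor gene Ackr1 had 0 UMIs in both libraries, with exact upper limits of 0.0287 and 0.0296 CPM.

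Cells that carried Cxcl9 were compared with cells of the same genotype that did not, at equal depth. All clusters were pooled here and for Cxcl10 and Cxcl16 below. The part of cluster membership in these differences was not tested. Counts are over genes with at least 5 CPM in the cells without the chemokine. Type II interferon genes were higher in Cxcl9-positive cells for 17 of 18 genes in Fcmr+/+ and 24 of 24 in Fcmr-/- TMPs, with medians of 1.18 and 0.92. Over all genes the shares higher were 47.5% and 53.9%, with medians of -0.02 and 0.02. Gbp2 was 275 CPM in the 105 positive and 18.7 CPM in the other Fcmr+/+ cells, and 298 CPM and 82.4 CPM in Fcmr-/- cells. Serpina3g was 91.8 against 1.65 CPM in Fcmr+/+ and 112 against 13.1 CPM in Fcmr-/- cells. It lies below the minimum in the Fcmr+/+ cells without Cxcl9 and is not counted there. Of the 5 NF-kB genes, 1 was higher in the positive Fcmr+/+ cells and 0 in the positive Fcmr-/- cells. All 5 MHC class II genes counted were higher in both genotypes, with medians of 1.26 and 0.77. Dividing-cell markers differed between genotypes, with 2 of 6 higher in positive Fcmr+/+ cells and 6 of 6 in positive Fcmr-/- cells.

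Cells that carried Cxcl10 had higher levels of both interferon lists and of Ifnb1. The type I list was higher for 33 of 33 genes in Fcmr+/+ and 33 of 33 in Fcmr-/- TMPs, with medians of 0.78 and 0.72. The type II list was higher for 16 of 17 and 25 of 25 genes, with medians of 0.69 and 0.98, and with genes of at least 5 CPM in either set of cells its median in Fcmr+/+ TMPs was 0.89. Over all genes the shares higher were 44.0% and 45.0%. In Cxcl9-positive cells the type I medians were 0.54 and 0.20. Rsad2, an antiviral enzyme, was 753 CPM in Cxcl10-positive and 104 CPM in Cxcl10-negative Fcmr+/+ cells. Ifnb1, below 5 CPM in the cells without Cxcl10, was 62.5 against 2.73 CPM in Fcmr+/+ cells and 9.04 against 1.00 CPM in Fcmr-/- cells. Ccl5 was 166 against 19.9 CPM and 112 against 54.8 CPM. All 5 NF-kB genes were higher in Cxcl10-positive cells of both genotypes, with medians of 0.30 and 0.13, in contrast to Cxcl9-positive cells. The NF-kB genes also differed between clusters of both libraries together. Against all other cells their median was -0.40 in cluster 1, where Cxcl9 was highest, and 0.23 in cluster 7, where Cxcl10 was highest. Ifnb1 was not higher in Cxcl9-positive cells, at 8.60 against 13.8 CPM in Fcmr+/+ and 2.10 against 3.24 CPM in Fcmr-/- TMPs. The positive cells held 6 and 20 Ifnb1 UMIs in all, too few to read a difference.

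Cells with and without Cxcl16 were compared in the same way. Thinning raised the share of cells without Cxcl16 from 14.5% to 34.8% in Fcmr+/+ TMPs. In Fcmr-/- TMPs it rose from 17.4% to 30.6%. Many of the negative cells thus held Cxcl16 before thinning, which can shrink the differences. They are therefore not ranked against those of Cxcl9 and Cxcl10. In Fcmr+/+ TMPs the type I and type II list medians between positive and negative cells were 0.02 and 0.09, and in Fcmr-/- TMPs 0.31 and 0.43. Ccl5 was 58.8 against 23.9 CPM in Fcmr+/+ and 83.0 against 37.5 CPM in Fcmr-/- cells. Cxcl3 was lower in Cxcl16-positive cells, at 112 against 190 CPM and 217 against 436 CPM.

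Across the 18 cluster and genotype groups, the genes whose log2 level ran most closely with each chemokine were different sets. For Cxcl9, among 6470 genes compared, they were Gbp8 (Pearson r = 0.94), AW112010 (0.91), Tapbpl (0.90), Iigp1 (0.90), Gbp4 (0.89), Serpina3g (0.89), Gbp2 (0.88) and Fam26f (0.88). For Cxcl10 they were Gbp5 (0.96), Isg15 (0.94), Socs1 (0.92), Oasl1 (0.91), Phf11d (0.89), Ifit2 (0.89), Ifi44 (0.89) and Rsad2 (0.89). For Cxcl16 they were Zmynd15 (0.96), Irf8 (0.92), Cd72 (0.88), Prex1 (0.85), Rhoh (0.83), Svbp (0.81), Dok1 (0.81) and Sh3bp2 (0.81). Zmynd15 is the gene that overlaps the start of Cxcl16, and it was 7.93 and 9.41 CPM. Clusters share their libraries and genotype, so these are descriptions over 18 groups that are not independent.

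Summed over the lists, the groups ordered in the same manner. The correlation of Cxcl9 with the summed type II interferon list was 0.80, against 0.46 with the type I list. That of Cxcl10 was 0.90 with the type I list and 0.79 with the type II list. That of Cxcl16 was 0.36 and 0.47. Cluster 7 lay off the Cxcl9 relation, since its type II sum in Fcmr-/- cells, 2883 CPM, was near the 2764 CPM of cluster 1, while its Cxcl9 level was 84.0 CPM against 363 CPM. The type II sum of the dividing cluster was 778 CPM in Fcmr+/+ and 1950 CPM in Fcmr-/- cells.

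**Figure D5:**
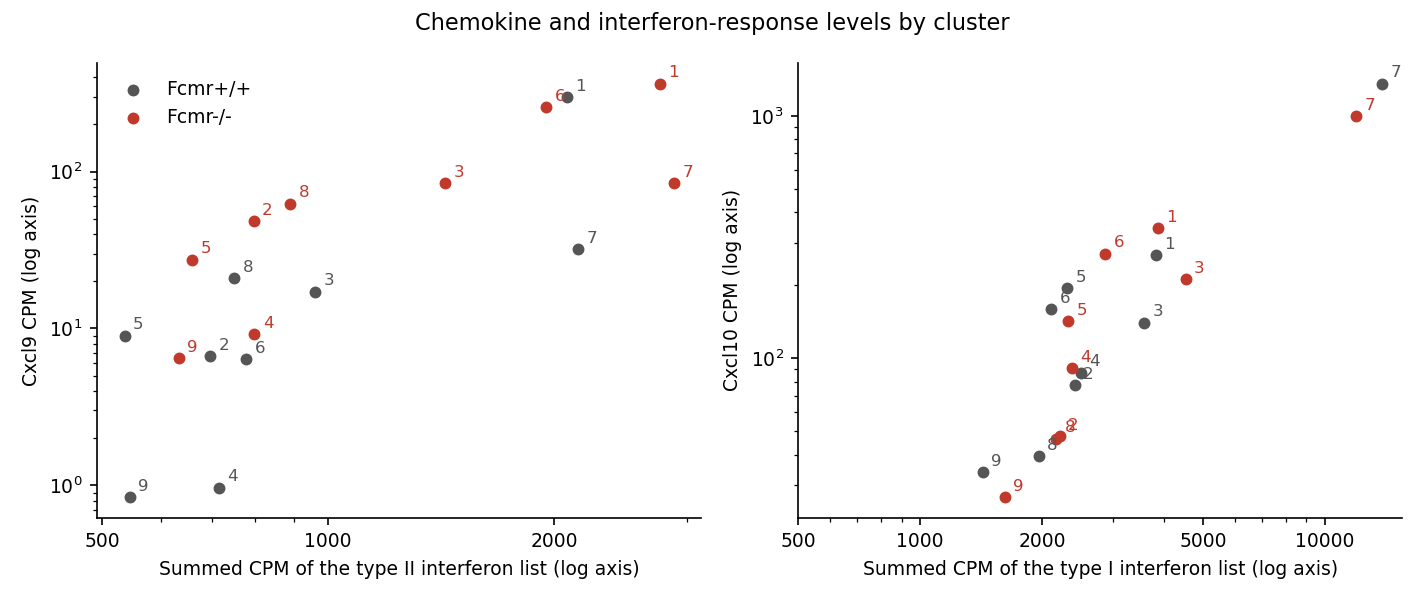
Cxcl9 level against the summed type II interferon list (left) and Cxcl10 level against the summed type I interferon list (right), in CPM on log axes, for the 9 clusters (numbers) of the Fcmr+/+ (gray) and Fcmr-/- (red) library. Cluster 7 has 84.0 CPM of Cxcl9 at a type II sum of 2883 CPM in Fcmr-/- cells, below cluster 1, and has the highest Cxcl10 levels, 1358 and 997 CPM.

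The order of the libraries was the same among cells of like depth for all 3 genes. In 4 bins of cells of like depth, the difference of Cxcl9 ran from 2.24 to 4.38, that of Cxcl10 from 0.22 to 0.95 and that of Cxcl16 from 0.09 to 0.34. Cxcl10 differed least in the shallowest bin, at 328 and 382 CPM, and most in the deepest, at 141 and 272 CPM.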

How the data were processed

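Droplet 3′ single-cell RNA libraries of sorted TMPs, 1 per genotype, were measured. The authors deposited a matrix of UMI counts for each library, not normalized, for which the submitters’ processing notes name Cell Ranger, Seurat 2.1.0 and the GRCm38 (mm10) build. The 14409 deposited barcodes equal the number of cells the study states for its matrix. Cells with 200 to 7000 genes and at most 30% mitochondrial UMIs were kept, as in the study, which left 14351 cells, and clustering used genes seen in at least 3 cells. Depth was 128408544 and 124630621 UMIs in the Fcmr+/+ and Fcmr-/- cells kept. Scrublet, through scanpy 1.11.5, marked 0 doublets in either library and so did not work here; the 5% of cells with the highest scores were left out as an alternative.

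Levels are summed UMIs as CPM, and differences are log2(CPM + 1), Fcmr-/- minus Fcmr+/+. Intervals are exact Poisson (levels), Clopper-Pearson (shares) and conditional binomial (differences). Cells were thinned without replacement to 6643 UMIs, the 10th percentile of the shallower library. Seurat 5.3.0 in R 4.3.3 clustered both libraries with the study's limits on variable genes and its 10 principal components, at resolution 0.8 and with the 3 chemokines removed from the variable genes. The fixed-composition value used clusters with at least 30 cells of each genotype. Clusters were named from marker lists. Leading and similar genes had at least 20 CPM in a cluster or group; the 8 most similar genes by Pearson r are named. The other genes named are members of the lists. Values of 1 list member are not reported here. The 3 chemokines and the lists were chosen with earlier results of these data known. Scripts were tested on simulated data. No test between genotypes was possible, and alternatives are given in the closing section.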

Additional observations from a re-analysis of the deposited data

Results flagged for a closer look

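Cxcl10 and Cxcl16 went against their library-wide direction in some clusters, where every cluster rests on 1 library per genotype, so that these opposite directions were not tested. Cxcl10 was lower in Fcmr-/- cells in cluster 2 (Tfrc and Gpr34), by -0.69 on the log2 scale, in cluster 5 (Hbb-bs and Adm), by -0.4536, in the type I interferon-like cluster 7, by -0.4456, and in the lipid-associated-like cluster 9, by -0.33. Cxcl16 was lower in Fcmr-/- cells in the inflammatory-like cluster 4, by -0.27.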

How the results depend on the processing

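Each library-wide difference was recomputed under 13 alternatives and kept its direction in all of them, from 3.27 to 3.72 for Cxcl9, 0.72 to 0.87 for Cxcl10 and 0.26 to 0.30 for Cxcl16. The following lay outside the counting interval of the reported value. With cells thinned, the differences were 3.35, 0.72 and 0.27, with the mean of per-cell CPM 3.35, 0.76 and 0.26, and with at most 5000 genes per cell 3.49, 0.81 and 0.26. With counts capped at the 99th percentile, Cxcl9 was 3.72 and Cxcl10 0.80. For Cxcl9 alone, 5 CPM added gave 3.29, all deposited barcodes 3.44 and leaving out cells with a melanoma UMI 3.27. At fixed composition, Cxcl9 was 2.65 at resolution 0.4, 2.64 without interferon genes in the clustering and 2.73 with 20 principal components, where Cxcl16 was 0.29. The fixed-composition difference of Cxcl10 was 0.054 at resolution 1.2 and 0.13 with 20 principal components, but reversed to -0.090 at resolution 0.4 and -0.069 with the chemokines among the clustering genes. Cxcl10 was higher in 55.6% of clusters, in 33.3% at resolution 0.4 and in at most 46.7% under the other alternative clusterings. The cause of these shifts was not tested. The values within clusters 1, 3 and 6 without cells of other types were chosen after seeing the data, as was the minimum of 5 CPM in Fcmr+/+ cells or in cells without the chemokine alone, and that of Cxcl9 in cluster 3 moved to 1.65. With 5 CPM in either library, 16 of 26 type II and 4 of 35 type I genes were at least 2-fold higher. Their medians were 1.15 and 0.57. Over all 8701 such genes, 0.793% were at least 2-fold higher. Genes that pass this minimum in Fcmr-/- cells alone must differ, so these list counts are not read as a result. Cxcl9 was higher in Fcmr-/- cells in 93.3% of clusters at resolution 1.2 and in 100% at the other 4 settings. No paired analysis was possible because each genotype has 1 library and the result comes from no test, and no replicate could be left out for the same reason. The small number of Cxcl9-positive Fcmr+/+ cells limits every value within them, and differences between mice cannot be told apart from differences between genotypes.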
